A study of Rattus norvegicus with 12 samples.

Results

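Ovarian transcriptomes of rats with letrozole-induced polycystic ovary syndrome (PCOS) that were or were not given mogroside V (MV) were compared here, as 4 PCOS-MV libraries against 4 PCOS libraries, which are 8 of the 12 libraries of the study. Every rat was a wild type Sprague Dawley female whose ovary was taken at postnatal week 15. The PCOS rats had received letrozole for 30 days, and the PCOS-MV rats had received letrozole for 30 days and then MV for 30 days. The remaining 4 libraries came from untreated control rats. The methods of the study add that a high-fat diet was fed during the letrozole days, that rats whose vaginal smears stayed in metestrus and diestrus were taken as PCOS, that MV was given by gavage in saline, and that 4 rats per group were sequenced. What the PCOS rats were given during the MV days, the cycle stage on the day of collection and the hour of collection are not given in the sources used here. The smears that defined PCOS were taken before the MV days. From later smears, taken in the MV days, the study reports longer diestrus in PCOS rats and cycles that gradually normalised with MV. The groups could therefore also differ in cycle stage at collection, which cannot be told apart from the treatment.

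Letrozole blocks aromatase, the enzyme that turns androgens into estrogens, so androgens build up and follicles stop growing. In a follicle, theca cells make androgens from cholesterol, granulosa cells turn these into estrogens, and after ovulation both become the luteal cells of the corpus luteum, which make progesterone. Mogroside V is the main sweet triterpene glycoside of monk fruit. The comparison addresses how the ovarian transcriptome of PCOS rats changed after MV was given.

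Values were deposited as FPKM (fragments per kilobase of transcript, scaled to the mapped fragments of each library), a level that is corrected for gene length. Of the 19730 genes in the table, 13264 had a mean of at least 1 FPKM over the 8 libraries and were tested as log2(FPKM + 1) with limma. Genes with a Benjamini-Hochberg adjusted p under 0.05 were called DEGs. All log2 changes below are PCOS-MV minus PCOS on this scale, which understates the change of low genes. Each library held an estimated 30200000 to 36900000 fragments, from the spacing of its low values. Markers of granulosa, theca and luteal cells and of oocytes were present in all 8 libraries. Summed markers of ciliated oviduct cells were at 4.186 to 7.783 FPKM and those of fat cells at 17.08 to 49.56 FPKM.

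After MV, 1892 genes were higher (14.3% of those tested) and 1539 were lower (11.6%). Most changes were moderate in size, with a median log2 change of 0.57 among the rises and of -0.61 among the falls. A change of at least 1 on the log2 scale was seen in 358 of the rises (2.70% of genes tested) and 398 of the falls (3.00%). DEGs were more common among abundant genes: 380 (9.95%) of the 3819 genes with a mean of 1 to 5 FPKM rose and 420 fell, against 19.7% and 20.3% of the 543 genes above 100 FPKM. All 4 PCOS-MV values lay above all 4 PCOS values for 2212 genes (16.7%) and below them for 1797 (13.5%), so 30.2% of the genes tested had no overlap between the groups. With each of the 8 libraries left out in turn, 2174 genes were called every time, 1137 higher and 1037 lower, and 0 changed direction.

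The largest rises among genes with a symbol included those of Tnc, Rln1, Slc10a2, Vtcn1, Gpr25, Testin, Dusp14, Tmem178a and Syt13. Vtcn1, an inhibitory ligand of T cells (ENSRNOG00000015279, chromosome 2, 203200427 to 203276142 on the plus strand in the coordinates of the deposited table, whose build is not named in it), was at 7.67, 4.72, 15.0 and 7.21 FPKM in PCOS replicates 1 to 4 and at 83.1, 65.7, 247 and 87.8 FPKM in PCOS-MV replicates 1 to 4. The groups lay far apart, and replicate 3 was the highest in both. The log2 change of Vtcn1 was 3.55 (standard error 0.44, limma adjusted p = 0.000852). Testin, a secreted relative of the cathepsin proteases, was at 0.354 to 0.673 FPKM in PCOS and at 16.8, 12.4, 7.21 and 25.5 FPKM in PCOS-MV. Dusp14, a phosphatase that acts on MAP kinases, was nearly even among PCOS rats at 2.497 to 3.07 FPKM and ranged from 20.6 to 63.4 FPKM after MV. The gene with the largest fitted rise of all had no symbol of its own. This locus, LOC100910418, was singled out after its values were seen. It was listed at 0 in 3 PCOS libraries and at 0.0199 FPKM in the other, and at 12.7, 29.9, 8.78 and 49.8 FPKM in PCOS-MV. It was also listed at 0 in 3 of the 4 control libraries and at 48.2 FPKM in the remaining one.

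**Figure D1:**
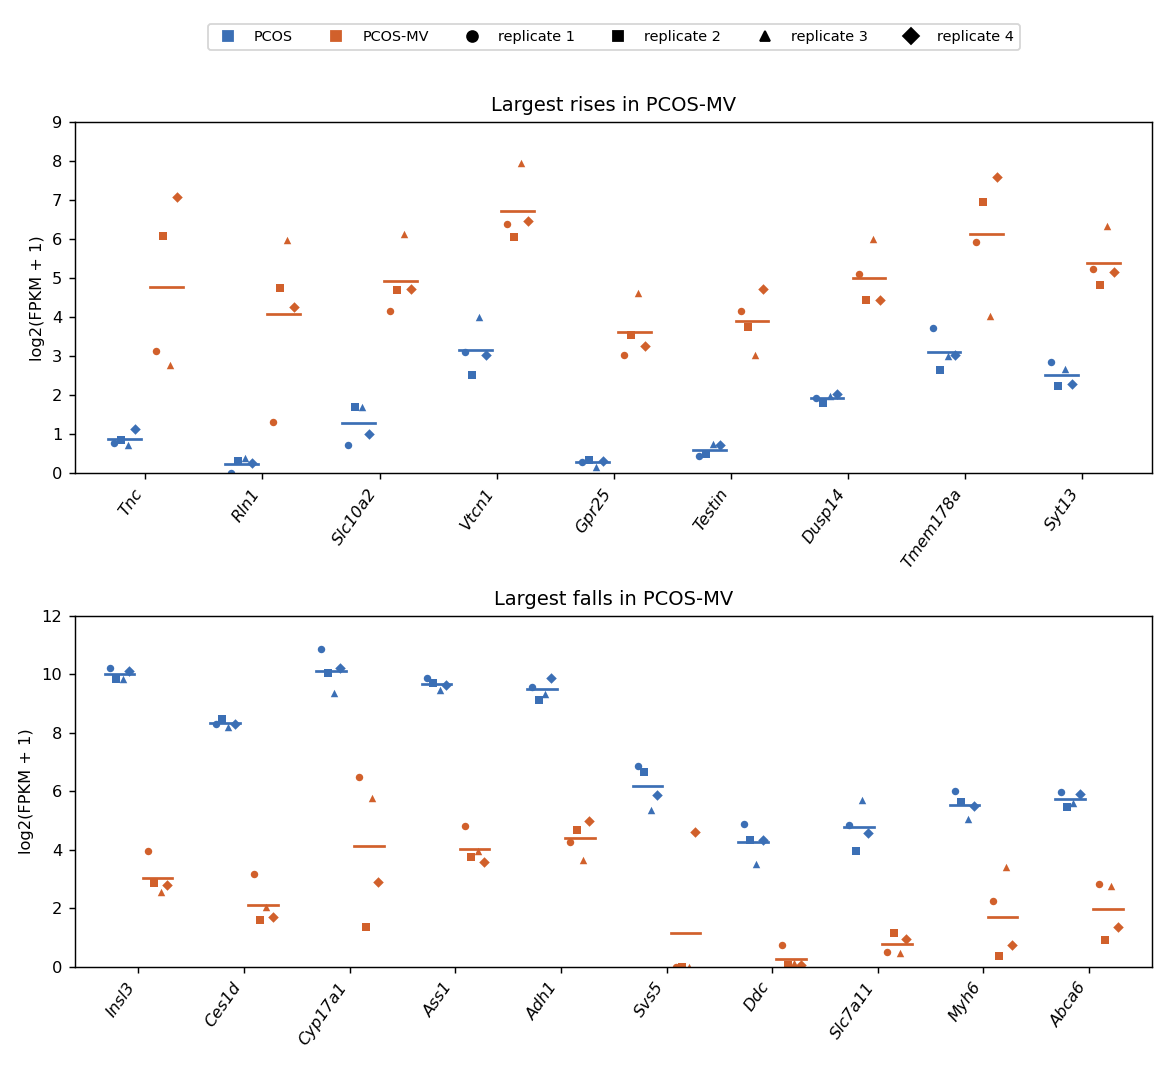
Levels of 9 of the largest rises (top) and 10 largest falls (bottom) as log2(FPKM + 1) on the vertical axis, with 1 point per library, blue for PCOS and orange for PCOS-MV, a symbol for each replicate number and a bar at the group mean. The genes were chosen for groups that do not overlap, and Tnc, Rln1, Tmem178a, Cyp17a1, Svs5 and Myh6 had an SD of at least 1 on this scale among the PCOS-MV libraries.

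The 10 largest falls were those of Insl3, Ces1d, Cyp17a1, Ass1, Adh1, Svs5, Ddc, Slc7a11, Myh6 and Abca6. Ass1 (ENSRNOG00000008837, chromosome 3, 10327414 to 10375826, minus strand), the argininosuccinate synthase of the urea cycle and of arginine synthesis, was at 943, 829, 708 and 789 FPKM in PCOS and at 27.1, 12.6, 14.5 and 11.1 FPKM in PCOS-MV. Its log2 change was -5.64 (standard error 0.24, limma adjusted p = 1.28e-05). Ddc, which decarboxylates dopa to dopamine, fell from between 10.4 and 28.6 FPKM to 0.681 FPKM in replicate 1 and at most 0.0925 FPKM in the other PCOS-MV libraries. Slc7a11, the cystine importer that feeds glutathione synthesis, fell from 27.8, 14.6, 51.1 and 22.9 FPKM to 0.423, 1.23, 0.391 and 0.937 FPKM, with a log2 change of -4.00 (standard error 0.34, limma adjusted p = 0.000169). Svs5, a seminal vesicle secretory protein gene, was at 39.7 to 117 FPKM in PCOS and was listed at 0 in 3 PCOS-MV libraries and at 23.1 FPKM in replicate 4.

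Among abundant genes, Selenop, the plasma carrier of selenium, fell from 3049 to 3180 FPKM in PCOS to 778, 384, 547 and 497 FPKM in PCOS-MV. This fall of 2.54 on the log2 scale (standard error 0.20, limma adjusted p = 0.000118) was from a level that had differed by little among the PCOS rats. Fth1, the ferritin heavy chain that stores iron, was at 2339 to 2835 FPKM in PCOS and 1204 to 1448 FPKM in PCOS-MV, and Pebp1, an inhibitor of Raf kinase, at 875 to 1533 and 235 to 376 FPKM. The most abundant rises were in the steroid pathway and in Mfge8, a secreted protein that marks dying cells for uptake, which went from 162 to 224 FPKM to 524, 899, 950 and 831 FPKM. Of the 12 mitochondrially encoded genes tested, 0 were higher and 8 were lower, with a median log2 change of -0.56, and their summed FPKM was 12500 to 15610 in PCOS and 10870 to 11790 in PCOS-MV. COX3 among them lost its call with any of the 8 libraries left out.

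Groups of genes with known roles were then examined. In each list the counts stand beside the 14.3% higher and 11.6% lower of all genes tested, and in bulk ovary fewer cells of a type and less RNA per cell cannot be told apart.

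**Figure D2:**
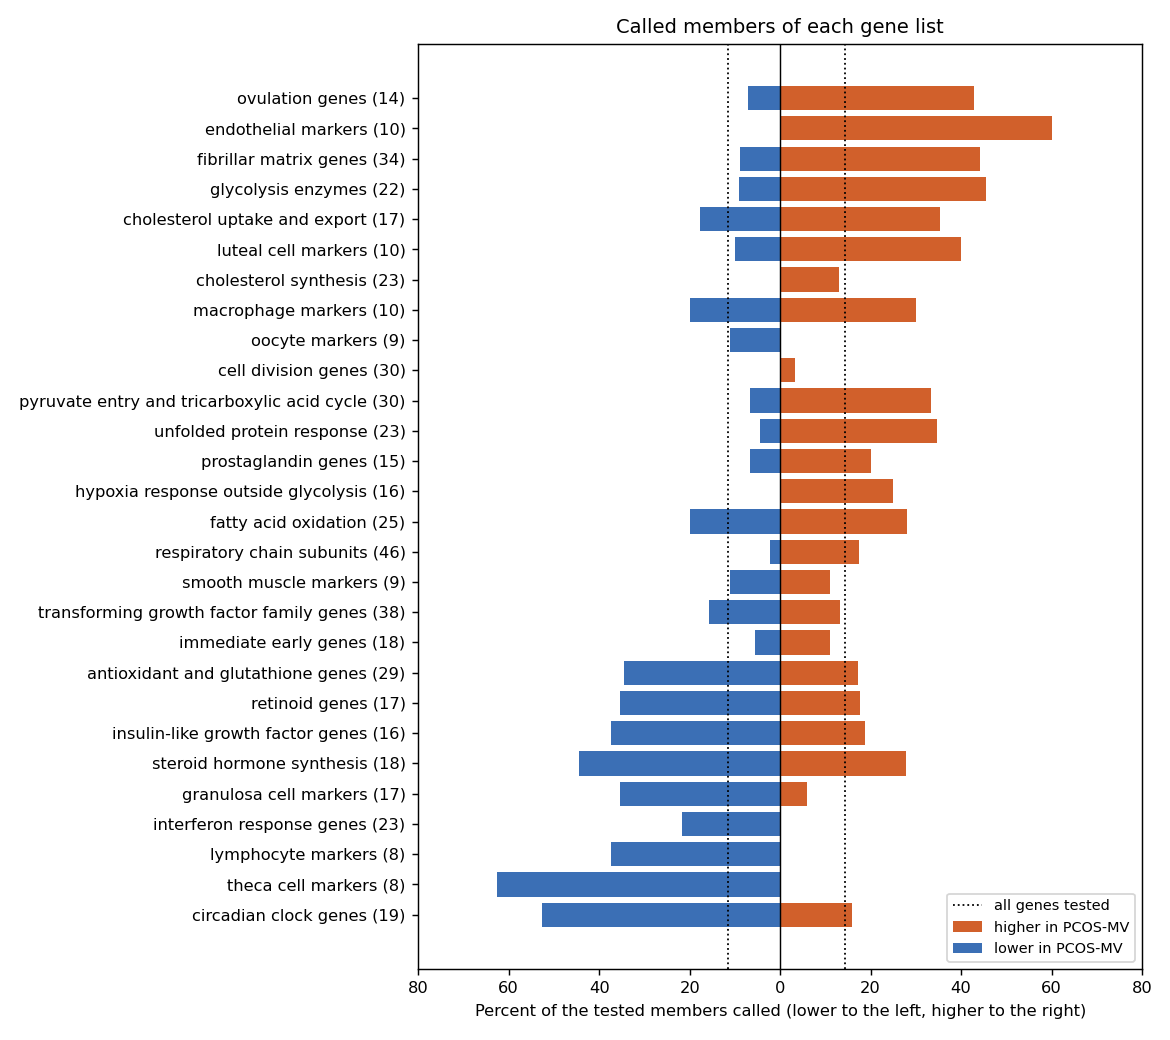
Percent of the tested members of each list that were called lower (blue, to the left) or higher (orange, to the right) in PCOS-MV, with the number of members tested in parentheses and dotted lines at the percentages of all genes tested, for lists with at least 8 tested members. Theca cell markers and circadian clock genes had the largest shares of falls, and endothelial markers the largest share of rises.

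Of the 8 theca cell markers, 5 were lower and 0 higher, with Insl3 and Cyp17a1 far ahead of the rest. Among the others Gli1, a transcription factor of hedgehog signalling, fell by 0.57 on the log2 scale and Nr2f2 by 0.57, while Ptch1, Hhip and Tcf21 were not called. The summed theca markers were at 1723 to 3220 FPKM in PCOS and 132.3 to 219.6 FPKM in PCOS-MV, and at 134.1 to 174.6 FPKM in the control rats. Most of the PCOS sums came from Insl3, at 906 to 1188 FPKM, and Cyp17a1, at 655 to 1866 FPKM. The difference between the sums thus mainly reflects Insl3 and Cyp17a1 and does not describe the other theca markers. Of 17 granulosa cell markers, 6 were lower and 1 was higher. Fshr, the receptor for follicle-stimulating hormone, was at 20.3, 14.9, 14.1 and 12.9 FPKM in PCOS and 7.21, 5.65, 5.63 and 3.36 FPKM in PCOS-MV (log2 change -1.37, standard error 0.20, limma adjusted p = 0.00195). Gja1, the gap junction protein that couples granulosa cells, fell from 419 to 602 FPKM to 203 to 284 FPKM. Fst, which binds activins, was the marker that rose, from 18.6 to 25.1 FPKM to 33.5 to 55.5 FPKM. Amh, the hormone of small growing follicles, was not called at 18.6 to 45.6 FPKM in PCOS and 38.6 to 45.03 FPKM in PCOS-MV. Of 10 luteal cell markers, 4 were higher (Rln1, Akr1c3, Ptgfr and Star) and 1 was lower (Lhcgr).

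Markers of other cell types were counted in the same way. Endothelial markers were higher in 6 of 10 and lower in 0, led by the VEGF receptors Flt1 and Kdr and by Cdh5, the cadherin of endothelial junctions, with log2 changes of 0.87, 0.86 and 0.76. Eng went from 31.1 to 32.9 FPKM to 47.8 to 51.7 FPKM. Macrophage markers divided, with 3 of 10 higher (C1qb, Cd68 and C1qc) and 2 lower (Adgre1 and Csf1r). Of 8 lymphocyte markers 3 were lower and 0 higher, the largest fall being that of Gzma, a granzyme of killer cells, from 2.51, 7.60, 5.603 and 3.97 FPKM to 0.720, 1.52, 1.18 and 0.689 FPKM. Of 9 oocyte markers, 1 was lower (Ooep) and 0 were higher. Of 30 cell division genes, 1 was higher (Aurkb) and 0 were lower. Smooth muscle markers gave 1 higher and 1 lower of 9, surface epithelium markers 1 higher of 7, and red blood cell markers 2 lower of 6, where the hemoglobin genes share much of their sequence. The single tested neutrophil marker and the 2 tested ciliated oviduct markers were not called. Fabp4 was the only called marker of 4 for fat cells, and Adipoq, which defines that type, was not called.

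Steroid hormone genes changed in both directions, with 5 of 18 higher and 8 lower. Star, which carries cholesterol into the mitochondrion, was at 1151, 462, 550 and 699 FPKM in PCOS and at 2105, 1631, 2891 and 1589 FPKM in PCOS-MV (log2 change 1.57, standard error 0.30, limma adjusted p = 0.00698). The electron carriers Fdx1 and Fdxr rose by 1.53 and 0.80. Cyp11a1, which they serve in making pregnenolone, was at 672 to 1201 FPKM in PCOS and at 2632, 757, 1808 and 772 FPKM in PCOS-MV and was not called. Akr1c3, the name in the table for the enzyme that inactivates progesterone (Akr1c18 in other rat annotations), went from 221 to 460 FPKM to 1466, 1618, 4692 and 2210 FPKM. Outside these 18 genes, Hsd3b3 of the 3-beta-hydroxysteroid dehydrogenase family rose from 1450 to 1733 FPKM to 2389 to 3284 FPKM. The near-identical members of this family make read assignment uncertain.

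Among the steroid genes that fell, Hsd17b3, which makes testosterone from androstenedione, was at 2.69, 4.91, 2.29 and 2.75 FPKM in PCOS and at 0.154, 0.196, 0.177 and 0.124 FPKM in PCOS-MV. Nr0b1, a repressor of steroid genes, fell from 27.9, 62.6, 43.4 and 28.9 FPKM to 2.31, 0.543, 5.81 and 1.21 FPKM (log2 change -3.74, standard error 0.45, limma adjusted p = 0.000757). Cyp1b1, which hydroxylates estrogens, fell from 276 to 431 FPKM to 65.7, 21.8, 16.5 and 18.9 FPKM. Cyp19a1, aromatase itself, was at 50.1 to 67.6 FPKM in PCOS and at 7.70, 4.94, 31.2 and 2.02 FPKM in PCOS-MV, so the fall was smallest in replicate 3. Srd5a1, a testosterone reductase, was higher, at 8.02, 20.9, 6.22 and 18.1 FPKM against 4.55 to 5.32 FPKM, and kept its call in 2 of 8 fits that left out a library.

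Genes that the luteinizing hormone surge is known to induce at ovulation were higher in 6 of 14 and lower in 1. Runx2 (ENSRNOG00000020193, chromosome 9, 18564927 to 18773092, plus strand), a transcription factor of luteinizing granulosa cells, was at 5.88, 5.44, 10.3 and 5.68 FPKM in PCOS and 55.01, 34.1, 52.8 and 30.8 FPKM in PCOS-MV. Its log2 change was 2.495 (standard error 0.24, limma adjusted p = 0.000321). Rgcc, a regulator of the cell cycle, went from 6.66 to 11.7 FPKM to 46.6, 43.0, 89.1 and 37.1 FPKM. Adamts1, a protease that opens the follicle wall, Cebpb and Ereg were also higher. Ptx3 and Tnfaip6, which organise the matrix around the cumulus cells, were not called. Prostaglandin genes gave 3 higher and 1 lower of 15. The receptor Ptgfr, through which luteal regression is triggered, rose by 1.98, and Hpgd, which inactivates prostaglandins, fell from 46.1 to 81.05 FPKM to 6.50, 19.3, 23.7 and 16.3 FPKM.

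Of 34 genes in the list of fibrillar matrix genes, which also holds other matrix genes such as Tnc, 15 were higher, 3 were lower and 16 were not called. Col4a1 and Col4a2, the chains of basement membrane collagen, rose by 0.95 and 0.93 with little spread, from 82.2 to 93.0 and 59.5 to 68.2 FPKM to 153 to 180 and 116 to 128 FPKM. Col3a1 rose by 0.96, Lum by 0.98, Fn1 by 1.24 and Thbs2 by 1.37. The tissue inhibitors of metalloproteinases did not move together, since Timp2 fell from 325 to 388 FPKM to 131 to 198 FPKM, Timp3 fell by 0.59, and Timp1 was at 183, 375, 83.2 and 417 FPKM after MV against 99.7 to 126 FPKM and was not called. Of 16 hypoxia response genes outside glycolysis, 4 were higher and 0 lower. Vegfa was at 14.8, 9.59, 13.5 and 11.7 FPKM in PCOS and at 38.2, 43.0, 50.4 and 32.0 FPKM in PCOS-MV. In the transforming growth factor family 5 of 38 were higher and 6 lower, with Id2 (1.27) and Tgfb1 (0.94) among the rises and Bmp6 (-1.39) and Bmpr1b (-0.86) among the falls.

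Insulin-like growth factor genes were lower in 6 of 16 and higher in 3. The ligand Igf1 fell from 130 to 170 FPKM to 59.7, 67.3, 28.0 and 53.2 FPKM. Its receptor Igf1r rose by 0.78, and Igf2r, which clears the other ligand, went from 18.7 to 19.8 FPKM to 53.4 to 63.5 FPKM, a rise of 1.55 (standard error 0.07, limma adjusted p = 1.39e-05) with a narrow spread in both groups. The binding proteins differed, with falls of Igfbp2 (from 223 to 348 FPKM to 45.2 to 58.1 FPKM), Igfbp6 and Igfbp7 and a rise of Igfbp3 (from 4.78 to 5.97 FPKM to 13.3, 26.4, 76.2 and 29.2 FPKM). Igfbp4 and Igfbp5 were not called.

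Antioxidant and glutathione genes were lower in 10 of 29 and higher in 5. The falls were led by glutathione transferases, whose close paralogs make the split of reads uncertain. Gsta3 was at 57.7 to 72.1 FPKM in PCOS and 16.45 to 19.98 FPKM in PCOS-MV (log2 change -1.78, standard error 0.09, limma adjusted p = 2.2e-05), and Gstm2 at 887 to 1165 and 266 to 428 FPKM. Among the rises, Prdx5 went from 55.8 to 58.3 FPKM to 109, 138, 176 and 144 FPKM, and Gpx1 from 87.2 to 123 FPKM to 218 to 251 FPKM. Retinoid genes were lower in 6 of 17 and higher in 3. Besides Adh1, which belongs to another family of similar genes, Aldh1a1, a retinal dehydrogenase, fell by 2.02 and the retinoic acid hydroxylase Cyp26b1 by 0.93, while Crabp2, a carrier of retinoic acid, rose from 13.5 to 23.7 FPKM to 172, 60.2, 79.4 and 49.4 FPKM. Of 23 interferon response genes 5 were lower and 0 higher. The proteasome subunits Psmb9 and Psmb8 fell most, by 1.94 and 1.25, whereas Isg15, Ifit1, Mx1 and Oas1a, which are typical of the response, were not called.

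Among energy genes, glycolysis enzymes were higher in 10 of 22 and lower in 2, namely Aldoc (from 22.4 to 29.7 FPKM to 2.84 to 5.40 FPKM) and Ldhb. Pgk1 rose by 1.21 (standard error 0.08, limma adjusted p = 7.62e-05), from 90.8 to 96.8 FPKM to 191 to 235 FPKM. Ldha, which makes lactate, was at 106 to 116 FPKM in PCOS and at 179, 245, 130.5 and 255 FPKM in PCOS-MV, and Pkm rose by 0.71 and Hk2 by 0.83. Gapdh rose by 0.50 and kept this call in 1 of 8 fits that left out a library. Genes of pyruvate entry and the tricarboxylic acid cycle were higher in 10 of 30 and lower in 2, with Dlst, Mpc2 and Sucla2 leading at 1.35, 1.07 and 0.94. Of 46 respiratory chain subunits encoded in the nucleus 8 were higher and 1 lower, with Cox5a at 0.72, and of 25 fatty acid oxidation genes 7 were higher and 5 lower, the largest fall being that of Ppara (-1.45), the receptor that activates this pathway. The median log2 changes of these last 3 lists were 0.22, 0.12 and 0.14, against 0.02 over all genes tested. Unfolded protein response genes were higher in 8 of 23 and lower in 1 (Herpud1), and immediate early genes higher in 2 of 18 and lower in 1 (Egr1).

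The circadian clock genes had the lowest median log2 change of the lists with at least 8 tested members, -0.63, with 10 of 19 lower and 3 higher and no overlap between the groups for 14, against 30.2% of all genes tested. The clock is a loop in which the Arntl and Clock proteins bind the E-box, CACGTG, and switch on the Per, Cry, Nr1d, Dbp and Ciart genes, whose products shut the loop down. Rora and Nr1d proteins compete for the element with the core AGGTCA that controls Arntl. Promoters from 250 bases before to 50 bases after the start were taken from RefSeq (GRCr8) for 16 of the 19 genes and searched on both strands. CACGTG was found in promoters of 5 genes (Ciart, Tef, Bhlhe40, Bhlhe41 and Nr1d1), AGGTCA in 2 (Arntl and Nr1d2) and the D-box TTANGTAA in 1 (Per2). The same letters were present in 6.42%, 16.2% and 2.24% of all 33469 promoters of this length. A match describes the sequence and is no measured site. Match and direction did not go together in all genes. Nr1d2, with AGGTCA, fell, as did Nr1d1 and Bhlhe41 with CACGTG, while Bhlhe40 with CACGTG and Per2 with the D-box were not called. The promoters of Ciart and Tef, which fell, and of Arntl, which rose, are given 5′ to 3′ with E-boxes (Ciart, Tef) or the AGGTCA core (Arntl) in capitals. The matches shown do not overlap each other.
Ciart promoter, chr2:186112197-186112496, minus strand: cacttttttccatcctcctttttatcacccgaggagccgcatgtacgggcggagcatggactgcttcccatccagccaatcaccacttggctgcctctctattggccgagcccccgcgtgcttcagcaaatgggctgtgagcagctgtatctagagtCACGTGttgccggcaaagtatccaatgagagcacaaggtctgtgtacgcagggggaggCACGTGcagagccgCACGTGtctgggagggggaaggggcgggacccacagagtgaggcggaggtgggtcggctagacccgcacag
Tef promoter, chr7:115206577-115206876, plus strand: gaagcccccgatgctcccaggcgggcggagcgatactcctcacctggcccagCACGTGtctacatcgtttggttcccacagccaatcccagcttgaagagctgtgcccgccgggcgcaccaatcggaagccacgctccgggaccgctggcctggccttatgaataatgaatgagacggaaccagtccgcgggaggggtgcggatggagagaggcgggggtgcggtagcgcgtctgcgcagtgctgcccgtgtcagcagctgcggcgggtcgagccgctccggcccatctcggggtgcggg
Arntl promoter, chr1:176766078-176766377, plus strand: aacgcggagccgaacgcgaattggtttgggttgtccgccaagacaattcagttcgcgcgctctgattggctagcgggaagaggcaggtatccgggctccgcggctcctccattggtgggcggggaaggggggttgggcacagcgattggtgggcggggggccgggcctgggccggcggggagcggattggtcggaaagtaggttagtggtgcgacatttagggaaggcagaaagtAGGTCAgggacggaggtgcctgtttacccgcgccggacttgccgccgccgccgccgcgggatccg

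Arntl, the positive arm of the loop, was at 5.25, 6.83, 6.61 and 4.55 FPKM in PCOS and at 21.6, 29.8, 33.1 and 28.4 FPKM in PCOS-MV, and at 14.9 ± 5.79 FPKM (SD, n = 4) in the control rats. Dbp, an output gene, went the other way, from 57.0, 34.4, 46.1 and 49.9 FPKM in PCOS to 10.1, 4.56, 10.3 and 5.15 FPKM in PCOS-MV, with 27.9 ± 12.9 FPKM (SD, n = 4) in the control rats. The log2 changes were 2.10 for Arntl (standard error 0.15, limma adjusted p = 0.000105) and -2.54 for Dbp (standard error 0.26, limma adjusted p = 0.000431). In both genes the groups did not overlap. Rora rose from 15.03 to 16.99 FPKM to 61.8, 37.9, 69.0 and 34.9 FPKM, and Nfil3, a repressor of Dbp targets, by 1.28. Ciart fell from 3.35, 1.05, 1.495 and 1.12 FPKM to 0.532, 0.332, 0.201 and 0.180 FPKM, and Tef from 34.0 to 38.9 FPKM to 15.6 to 22.5 FPKM. Per3, Nr1d1, Nr1d2, Hlf, Npas2 and Bhlhe41 were also among the lower genes, and Clock, Per1, Per2, Cry1, Cry2 and Bhlhe40 were not called. Clock gene levels swing with the hour of the day, and the part of the hour of collection in these differences was not tested.

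**Figure D3:**
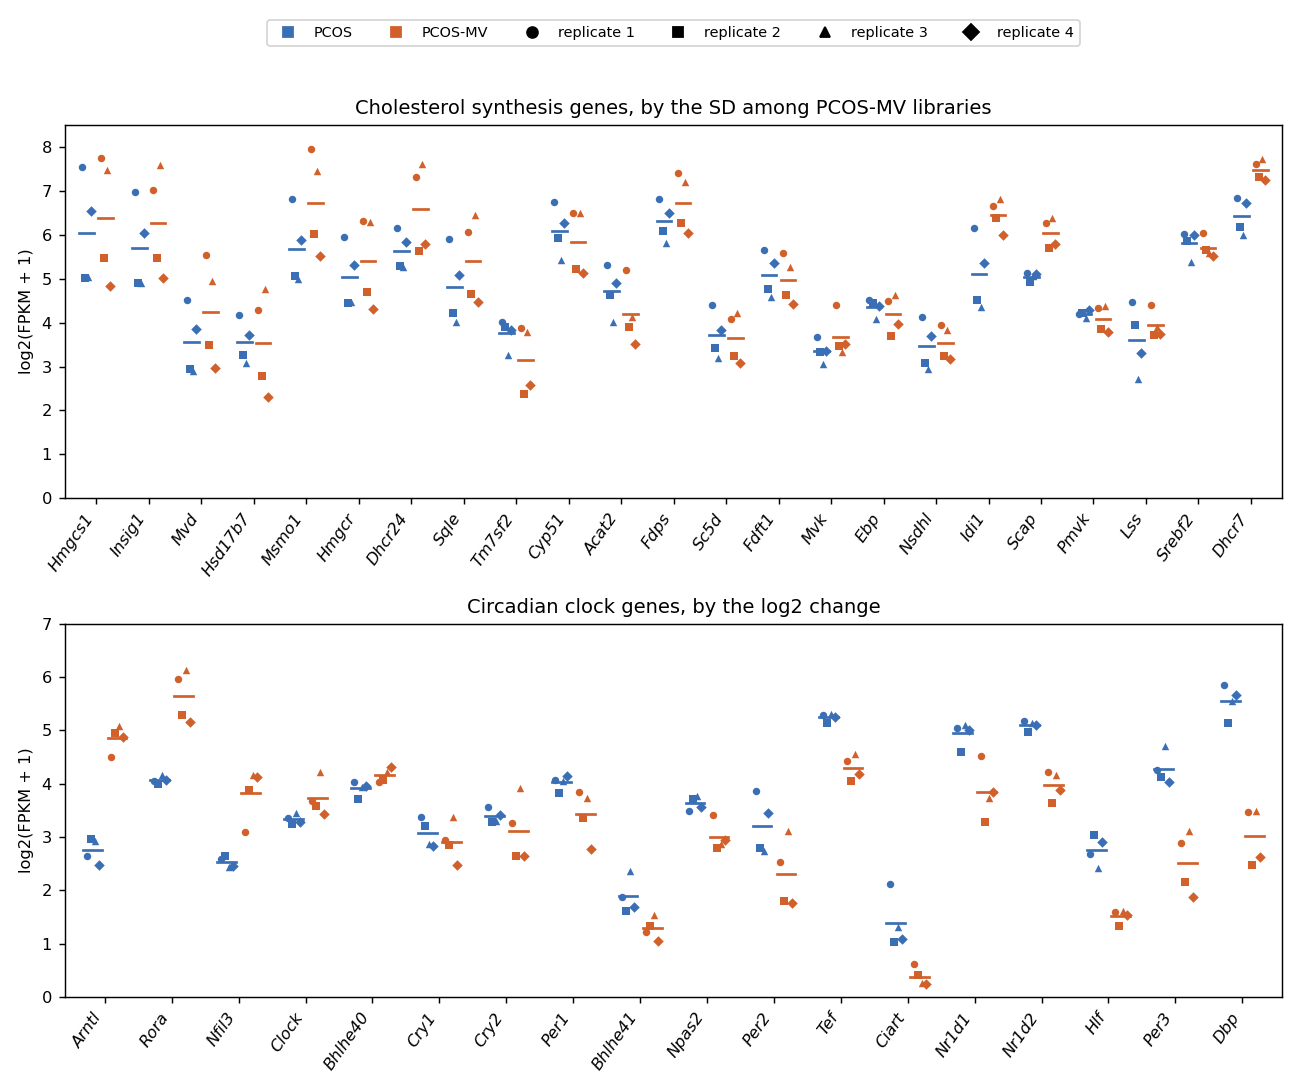
Levels of 23 cholesterol synthesis genes (top, ordered by the SD among PCOS-MV libraries) and 18 circadian clock genes (bottom, ordered by the log2 change) as log2(FPKM + 1) on the vertical axis, with 1 point per library, a symbol for each replicate number and a bar at the group mean. Cholesterol genes from Hmgcs1 to Sqle were high in PCOS-MV replicates 1 and 3 and low in 2 and 4, whereas Arntl, Rora and Nfil3 at the left and 9 of the genes further right differed between the groups.

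The spread among the PCOS-MV rats was then described by the SD of log2(FPKM + 1) over their 4 libraries. Its median over all genes tested was 0.169, against 0.130 in PCOS and 0.174 in control libraries. The lowest correlation between libraries was 0.950 in PCOS-MV, for replicates 3 and 4, 0.971 in PCOS and 0.934 in control, and those between a PCOS-MV and a PCOS library were lower, at 0.902 to 0.927. An SD of at least 1, which is taken here as wide, was found for 211 genes in PCOS-MV, 142 in PCOS and 216 in control, where replicate 3 also held oviduct markers (up to 88.69 FPKM summed). Of the 211 genes, 66 were wide in PCOS too (31.3% of the 211 and 46.5% of the 142) and 82 in control (38.9% and 38.0%).

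**Figure D4:**
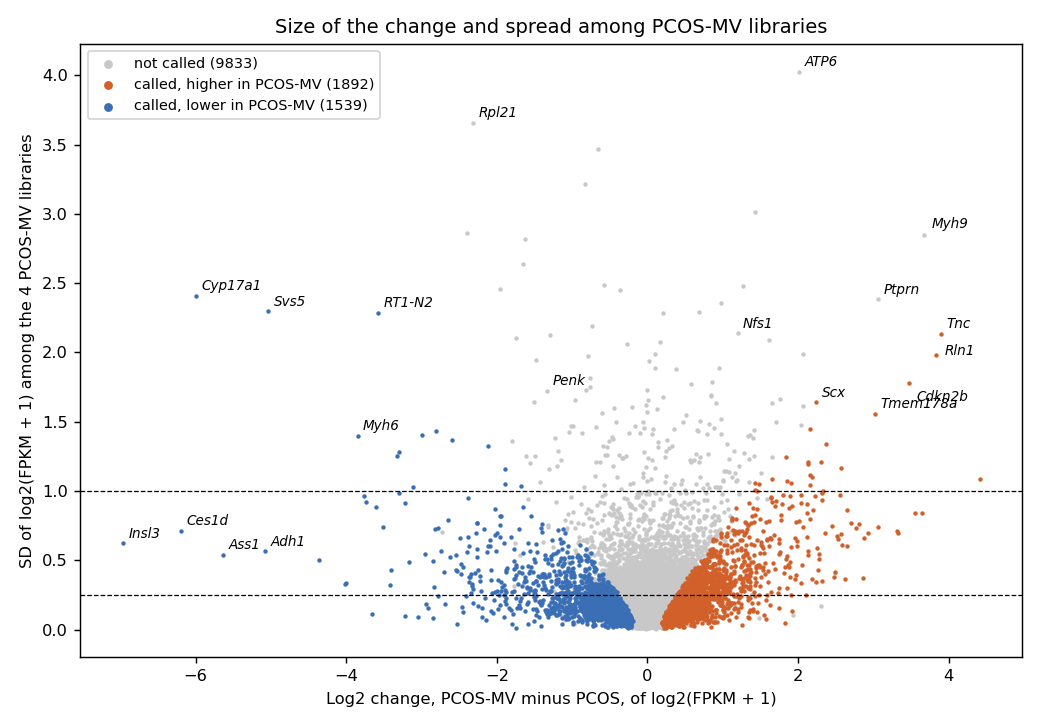
Each point is 1 of 13264 genes, with the log2 change on the horizontal axis and the SD of log2(FPKM + 1) among the 4 PCOS-MV libraries on the vertical axis, in orange for called rises, blue for called falls and grey for genes not called. Dashed lines mark SDs of 1 and 0.25, and 37 called genes lie at or above the upper line.

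Most of the wide genes were not called. Of the 211, 23 were called higher, 14 lower and 174 were not called, of which 57 had a log2 change of at least 1 in size. Over all genes, 104 with a change of that size were not called, 59 of them rises and 45 falls. Among called genes with a change of at least 1, rises varied more among PCOS-MV rats than falls, with a median SD of 0.46 against 0.32. The same genes had median SDs of 0.19 and 0.25 in PCOS. A steady change, with an SD of at most 0.25 after MV, was seen in 58 of the 358 rises (16.2%) and 138 of the 398 falls (34.7%). The rises had a median mean of 22.8 FPKM after MV and the falls one of 4.77 FPKM, and log2(FPKM + 1) can vary little near 0. The part of these low levels in the difference was not tested.

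The steadiest rises were those of Kcnj8, Aifm2, Tnni1, Sla2 and Angptl4. Kcnj8, the pore of a potassium channel of vessel walls, was at 4.21, 4.65, 4.59 and 4.81 FPKM in PCOS and 12.4, 12.6, 12.4 and 11.9 FPKM in PCOS-MV. Aifm2, which keeps coenzyme Q reduced and protects membranes from lipid peroxidation, was at 12.2 to 14.04 FPKM and 47.5, 50.8, 50.4 and 51.0 FPKM, with the smallest adjusted p of the genes named here (log2 change 1.82, standard error 0.07, limma adjusted p = 7.68e-06). Angptl4, an inhibitor of lipoprotein lipase, was at 21.1 to 30.4 and 64.8 to 73.7 FPKM. Sla2 was even in PCOS-MV at 13.3 to 15.1 FPKM but reached 14.9 FPKM in PCOS replicate 2, against 2.08 to 3.04 FPKM in the other PCOS libraries, and kept its call in 1 of 8 fits that left out a library. The steadiest falls included Krt84, Eaf2, Hsd17b3 and Kcng4, which reached at most 0.363 FPKM in every PCOS-MV library. Krt84, a hair keratin, had ranged from 0.431 to 7.19 FPKM in PCOS and kept its call in 3 of 8 fits.

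The wide genes fell into recurring sets of libraries. Replicates 2 and 4 were the highest PCOS-MV libraries for 60 of the 211 genes, and replicates 1 and 3 for 56. The other pairs led in 22 to 27 genes each. Libraries tied at 0 were ranked by replicate number, which favours pairs with low numbers. Dr1, for example, counts for replicates 1 and 3 but was listed at 0 in replicate 1. Replicates 1 and 3 led in 7 called rises and 8 called falls, and replicates 2 and 4 in 9 and 2. The library farthest from the others was replicate 1 for 62 genes, 2 for 35, 3 for 63 and 4 for 51. Some library is farthest for every gene, so these counts do not show where the spread came from. The fit with library weights gave PCOS-MV replicates 1 to 4 weights of 0.544, 1.74, 0.365 and 1.22, where a lower weight goes with more scatter. Without replicate 3, 185 genes were wide, against 221 to 240 without each of the others.

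Of the genes that were high in replicates 1 and 3, Cyp17a1, the enzyme of androgen synthesis in theca cells (chromosome 1, 266422132 to 266428239, minus strand), was at 655 to 1866 FPKM in PCOS and at 88.1, 1.57, 53.4 and 6.41 FPKM in PCOS-MV, so the highest and lowest values after MV were 56.2-fold apart. Lhcgr, the luteinizing hormone receptor, was at 97.8, 15.2, 57.5 and 25.9 FPKM after MV against 113 to 199 FPKM, and kept its call in 4 of 8 fits. Scarb1, the lipoprotein receptor that supplies cholesterol, was at 1932, 451, 1352 and 431 FPKM against 367 to 769 FPKM and was not called. Fabp6, a bile acid binding protein, was at 260, 42.4, 323 and 40.1 FPKM against 17.4 to 43.6 FPKM and was also not called (limma adjusted p = 0.0639). Scx, a transcription factor of tendon, was at 90.3, 12.6, 56.1 and 7.39 FPKM against 3.41 to 5.81 FPKM, with a call in 2 of 8 fits and none with library weights (limma adjusted p = 0.0664). Mt1, a metallothionein, was at 514, 122, 495 and 154 FPKM against 59.4 to 105 FPKM.

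Of 23 cholesterol synthesis genes, 3 were higher (Idi1, Dhcr7 and Scap), 0 were lower and 7 were wide in PCOS-MV. Hmgcs1, the synthase at the head of the pathway, was at 213, 43.7, 178 and 27.6 FPKM in PCOS-MV and at 184, 31.4, 31.9 and 92.8 FPKM in PCOS. Msmo1, a sterol demethylase, was at 245, 64.0, 174 and 44.9 FPKM after MV, and Insig1, which restrains the pathway when sterol is plentiful, at 130, 43.7, 191 and 31.2 FPKM. The mean log2(FPKM + 1) of the list was 5.78, 4.65, 5.66 and 4.46 in PCOS-MV replicates 1 to 4 and 5.48, 4.54, 4.29 and 5.01 in PCOS, so the groups overlapped, with PCOS replicates 1 and 4 above PCOS-MV replicates 2 and 4. The letters TCACNCCAC of the sterol element were in 0 of the 18 promoters found for these genes and in 1.12% of all promoters. At a share this low, 0 matches in 18 promoters does not show that the element is missing. Only these exact letters were searched, from 250 bases before to 50 bases after the start. Cholesterol uptake and export genes were higher in 6 of 17 and lower in 3, with Soat1, which esterifies cholesterol for storage, rising by 1.02 and the exporters Abca1 and Abcg1 falling by 0.77 and 0.73.

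Of the genes that were high in replicates 2 and 4, Tnc, a matrix protein of remodelling tissue (chromosome 5, 79789671 to 79874671, minus strand), was at 7.81, 67.2, 5.92 and 135 FPKM in PCOS-MV against 0.658 to 1.19 FPKM in PCOS. Tmem178a was at 60.1, 124, 15.4 and 194 FPKM against 5.33 to 12.2 FPKM. Plat, the tissue plasminogen activator, was at 35.5, 98.0, 26.7 and 118 FPKM against 8.47 to 17.7 FPKM, and Cthrc1, a secreted matrix protein, at 2.98, 11.03, 2.79 and 18.1 FPKM against 0.181 to 0.427 FPKM. All 4 of these genes rose, yet the 2 lower PCOS-MV libraries were closer to PCOS. Ptprn, a protein of secretory granules, was at 4.30, 57.0, 1.94 and 75.2 FPKM against 0.526 to 1.86 FPKM and was not called (limma adjusted p = 0.055), although the groups did not overlap. It was called with library weights (limma adjusted p = 0.00483) and with a pseudocount of 0.1. Penk, the enkephalin precursor, was at 7.998, 64.5, 8.21 and 77.8 FPKM against 59.4 to 71.7 FPKM. Replicates 2 and 4 of Penk thus stood near the PCOS level, and replicates 1 and 3 near the control mean of 6.92 ± 1.27 FPKM (SD, n = 4).

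**Figure D5:**
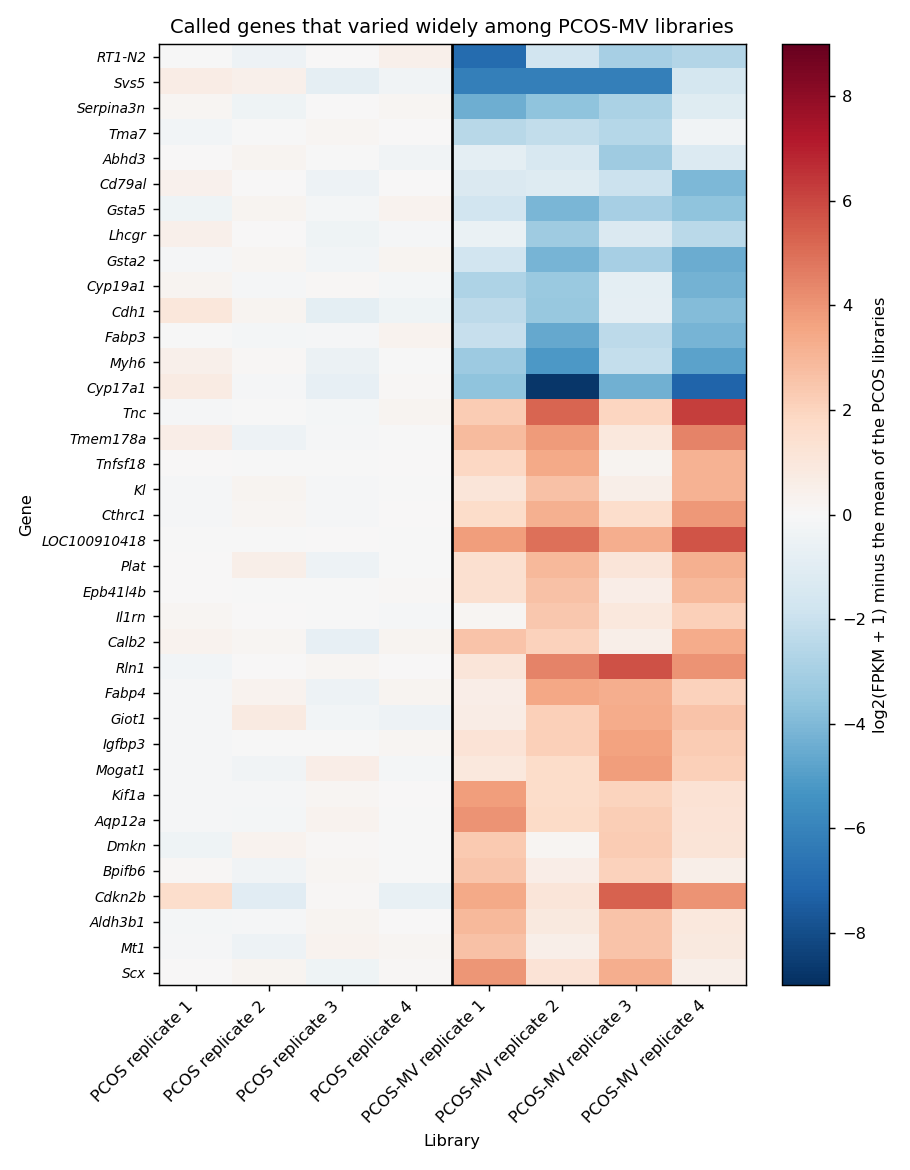
Heat map of the 37 called genes with an SD of at least 1 among PCOS-MV libraries, with genes as rows and the 4 PCOS and 4 PCOS-MV libraries as columns, coloured by log2(FPKM + 1) minus the mean of the PCOS libraries. The 14 falls are at the top and the 23 rises below, and Tnc, Plat and Cthrc1 are darkest in PCOS-MV replicates 2 and 4 while Scx, Mt1 and Aldh3b1 are darkest in 1 and 3.

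Replicate 3 was the highest PCOS-MV library for several luteal markers and other genes, whereas the luteal markers Scarb1 and Lhcgr were highest in replicate 1. Rln1, the hormone relaxin, was at 1.48, 25.8, 62.5 and 18.4 FPKM after MV against at most 0.327 FPKM. Replicate 1 was thus the nearest to the PCOS level, though above every PCOS library. Igfbp3 and the luteal marker Ptgfr, at 76.2 and 173 FPKM, and Slc10a2, a bile acid transporter, at 69.3 FPKM, were highest there as well. Inhba, the activin subunit made by granulosa cells of growing follicles, was at 73.4, 89.3, 246 and 31.3 FPKM in PCOS-MV and 216 to 300 FPKM in PCOS and was not called (limma adjusted p = 0.0546), and its replicate 3 lay within the PCOS range. The summed luteal markers were at 5799, 3880, 9383 and 4446 FPKM in PCOS-MV replicates 1 to 4 and the summed granulosa markers at 1464, 1403, 1732 and 1067 FPKM. Both sums were highest in replicate 3 and include some of the genes just named. Most of the luteal sums came from Akr1c3, Star and Scarb1, with Akr1c3 alone at 1466, 1618, 4692 and 2210 FPKM in PCOS-MV replicates 1 to 4. Replicate 1 had the luteal sum nearest to that of replicate 3, although Rln1 and Ptgfr were lowest in replicate 1. The part of these sums in the spread was not tested.

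Some wide genes were wide through values of 0. Of the 211 genes, 56 were listed at 0 in at least 1 PCOS-MV library, 49 of these were above 5 FPKM in another, and 2 were called. Rpl21, a ribosomal protein gene that every cell uses, was listed at 158 FPKM in PCOS-MV replicate 1 and at 0 in the other 3, and Myh9, a nonmuscle myosin, at 0 in all 4 PCOS libraries and in PCOS-MV replicate 1 but at 15.6, 121 and 12.2 FPKM in the others. ATP6, encoded in the mitochondrion, was at 286 FPKM in PCOS-MV replicate 3, while no other library of the 3 groups exceeded 0.0995 FPKM. Hsd3b5 was at 92.5, 0.511, 95.7 and 0.443 FPKM after MV and at 52.0, 44.8, 49.6 and 0 FPKM in PCOS, within the family of similar genes named above. A gene listed at 0 was not taken to be unexpressed. Of the 117 tested genes listed at 0 in at least 1 of the 8 libraries, 17 were called. RT1-N2, of the variable histocompatibility genes, was at 0.0344, 36.4, 14.6 and 18.8 FPKM against 90.1 to 170 FPKM, and Cdkn2b, a cell cycle inhibitor, was at 33.1, 5.92, 130 and 53.1 FPKM against 0.586 to 8.62 FPKM. These 2 genes kept their calls in 4 and 5 of 8 fits. Other calls given above lay close to the threshold, since Egr1 was called in 1 of the 8 fits, Aurkb, Bhlhe41, C1qc, Mt1, Idi1 and Ereg in 2 and Gli1 in 3.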

How the data were processed

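Ovarian RNA was sequenced in 12 libraries, of which the 4 PCOS-MV and 4 PCOS libraries were compared and the 4 control libraries are printed beside them. Groups were taken from the treatment and title in the sample labels. Per the methods of the study, the authors dropped adapter and poor-quality reads, mapped those left to the rat genome with HISAT2, counted reads per gene with featureCounts and deposited the FPKM computed from these counts. The processing notes of the submitters name STAR 2.5.1b and HTSeq 0.6.0 instead, and the genome build is not given in the sources used here. Gene and exon counts were not used here, and the authors' own deposited fold changes, p-values and adjusted p-values of each comparison were not used.

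The deposited table repeats a gene's FPKM on each of its 26928 transcript lines, and 1 line per gene was kept. Of its gene names, 25 had been turned into dates. Older symbols were matched through RefSeq. A value of 1 fragment was read from the spacing of low FPKM multiplied by length in genes with 1 transcript. In the 8 libraries 46.5% to 50.8% of the low values lay within 2% of 1 or 2 steps, where 8% would if they were spread evenly, so the depths of 30200000 to 36900000 fragments are estimates.

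The fit was limma 3.58.1 (lmFit and eBayes with trend) in R 4.3.3 on log2(FPKM + 1), with a pseudocount of 1, 4 libraries against 4 and no covariate. It was also run on simulated normal values with the same spread in both groups, so unequal spread between the groups was not covered. Tables and plots were made with Python 3.11.15, pandas 2.3.3 and matplotlib 3.10.9. The study's own test needs counts and was not used. The p-values set the difference between the groups against the spread between rats within a group. Named genes were the 10 largest rises and falls with no overlap between groups, the 5 most abundant called genes in each direction, the 8 called and 6 uncalled genes of largest SD in PCOS-MV, the 5 steadiest changes in each direction, up to 3 called members per direction of each of 33 lists, and Ldha, Hk2, Pkm and Gapdh. Other list members, and the wide genes printed by library pair, were chosen after their values were seen. The members and lists were chosen with earlier results of these data known. List genes that matched no row are not analysed here, and some genes that the rule or the lists name are not reported here. Alternatives covered the pseudocount, the filter, scaling, library weights, 1 model with 12 libraries, a log2 threshold of 1, the replicate block and each library left out.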

Additional observations from a re-analysis of the deposited data

Results flagged for a closer look

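In 106 groups of 4 libraries of the named genes, 1 library stood far from the other 3 in 9. Chance gives about 1 in 20 for genes not chosen by their values, but Svs5, ATP6, Rpl21 and Nfs1 were named for their scatter, so the count is not set against it. Any value is far from 3 values of 0, as in Krt84, Rpl21 and Svs5. Aifm2 and Krt84 were named for their small spread after MV, so small differences counted as far. PCOS-MV replicate 1 was the far library in 6 of the 9. It was low for Hk2, the hexokinase that starts glycolysis, at 7.673 FPKM against 13.12 to 14.32 FPKM in the other PCOS-MV libraries, and for Aifm2 at 47.54 FPKM against 50.39 to 50.98 FPKM. It was high for Ddc, at 0.6813 FPKM against 0.04864 to 0.09252 FPKM, and for Krt84, at 0.01144 FPKM against 0 in the others. It was also far for Rpl21, at 158.2 FPKM against 0, and for Nfs1, at 0 against 14.21 to 23.22 FPKM, which share the pattern of values of 0 described above. PCOS-MV replicate 3 stood apart for ATP6 at 285.7 FPKM, PCOS-MV replicate 4 for Svs5 at 23.13 FPKM, and PCOS replicate 2 for Sla2 at 14.86 FPKM. No test was made of what set these libraries apart.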

How the results depend on the processing

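With each library left out in turn, the number of genes higher in PCOS-MV was 1273 to 1939 and the number lower 1183 to 1434, against 1892 and 1539. A required log2 change of at least 1 left 358 and 398. The other alternatives gave 1565 to 2535 rises and 1141 to 1846 falls, the lowest with a minimum mean of 5 FPKM and the highest with library weights. Median ratio scaling gave 1809 and 1759. Genes with an SD of at least 1 among the PCOS-MV libraries numbered 211, or 137 with a minimum mean of 5 FPKM, 377 with a pseudocount of 0.1, and 185 to 240 with each PCOS-MV library left out. The replicate block gave 1709 rises and 1406 falls, and under it Scx lost its call (limma adjusted p = 0.0607) and Ptprn gained one (0.0427). Same-numbered PCOS and PCOS-MV libraries deviated together by correlations of 0.101, 0.172, 0.135 and 0.033 for replicates 1 to 4. Each was the highest for its PCOS library, while libraries of unlike number gave -0.16 to 0.041. Only PCOS-MV replicate 4 correlated better with a library of another number, PCOS replicate 2 (0.041). What lay behind these correlations was not tested, and the main fit did not take the numbers as pairs. Of the 161 named genes, 155 were called, 124 of these under every alternative that could be fitted, and 0 changed direction. Depth is an estimate, so no counting interval was given for single values.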
